A study of Saccharomyces cerevisiae with 9 samples.

Results

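The NaCl response of S5A cells was compared with that of wild-type cells feature by feature, on 3 arrays of each strain out of 9 in the series. The cells of both strains lacked the chromosomal RPB1 gene (RPO21), which encodes the largest subunit of RNA polymerase II, and carried it on a plasmid. In the strain CTD14, called wild-type here, the C-terminal domain (CTD) of that subunit held wild-type heptad repeats only, and in CTD5A, called S5A, it was a shorter chimera of repeats with alanine in place of serine 5 followed by wild-type repeats. Another strain, CTD2A, carried a chimera with alanine in place of serine 2, with a different number of repeats. It entered the fit to share the estimate of the spread, and its missing values helped decide which features were tested. Its means are given at a few genes. Cells were grown in rich medium, and each array set RNA taken 30 min after 0.7 M NaCl against RNA from the same strain's unstressed culture. A response is therefore a log2 ratio within a strain. By these ratios a difference between strains in the unstressed level cannot be told apart from one in the salt-treated level. The paper reports few expression differences among these strains before stress. Its figure for this shows averages of the stress groups, and the unstressed level of single genes was not tested here. Of 6868 features on the arrays, 5645 had a value on all 9. Of these, 5001 lay outside the lists used here for ribosomal protein, ribosome biogenesis and classic induced stress (iESR) genes. The 644 features set aside were 142 ribosomal protein, 331 ribosome biogenesis and 173 iESR features, with 2 counted in a pair of these groups.

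The CTD is a long tail of repeated heptads that is phosphorylated on serine 5 near the start of genes and on serine 2 farther along. The serine 5 mark is bound by the capping enzyme and by Nrd1, part of a complex that ends short transcripts early, and the serine 2 mark by elongation and 3′ end processing factors. In yeast, salt brings a fast transient programme in which stress defence and carbohydrate genes rise and growth genes fall. The genes described here lie outside the lists set aside for that programme and cover respiration, autophagy, the cell wall, nutrient uptake, mating and chromosome segregation. These lists hold fewer genes than the paper counts in its induced and repressed stress groups. Some members of the programme may therefore remain among the features described.

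Wild-type cells responded at 70.6% of all features tested and S5A cells at 63.1% (limma, adjusted p below 0.05). A difference between the strains was called at an adjusted p at or below 0.025. By that rule 7.95% of all features tested were called, 4.13% with a higher value in S5A and 3.83% with a lower one. Outside the 3 groups 255 of 5001 features were called, or 5.10%, of which 96 were higher and 159 lower in S5A. With the replicate number as a block this count was 467, of which 224 were higher and 243 lower, a more even split. The count was 4 without S5A replicate 1 and 38 without wild-type replicate 3. An unadjusted p below 0.05 for the difference was reached by 1335 of the 5001. The median difference over all features tested was 0.01, and the 3 S5A arrays had a smaller overall spread (SD over features 0.886 to 0.916) than the 3 wild-type arrays (1.07 to 1.22).

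The outside calls fell into 4 classes. The response was lost, in whole or in part, at 194 features, of which 121 were induced and 73 repressed in wild-type. It was larger in S5A at 13, ran the opposite way at 21, and passed the threshold only in S5A at 27. With the replicate block 331 features lost response, 164 induced and 167 repressed, so the excess of lost induction was absent in that fit. Among the 593 outside features that wild-type cells induced at least 2-fold (a log2 response of 1 or more), the median share of the response that S5A retained was 0.732, and 500 of them had a smaller response of the same sign. Among the 443 repressed to that extent the share was 0.734, with 388 smaller. A smaller response was thus the usual case among these features. They were picked by their wild-type response, and such a choice by itself favours a smaller response in S5A. Most of them were neither called nor shown to be alike. This was the case for 444 of the 593 and 287 of the 443, with alike judged by the rule for kept responses given below. When all arrays were scaled to one spread, 65 features lost response and 45 exceeded it, so the balance of these 2 classes depended on whether the overall difference in spread was kept.

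**Figure D1:**
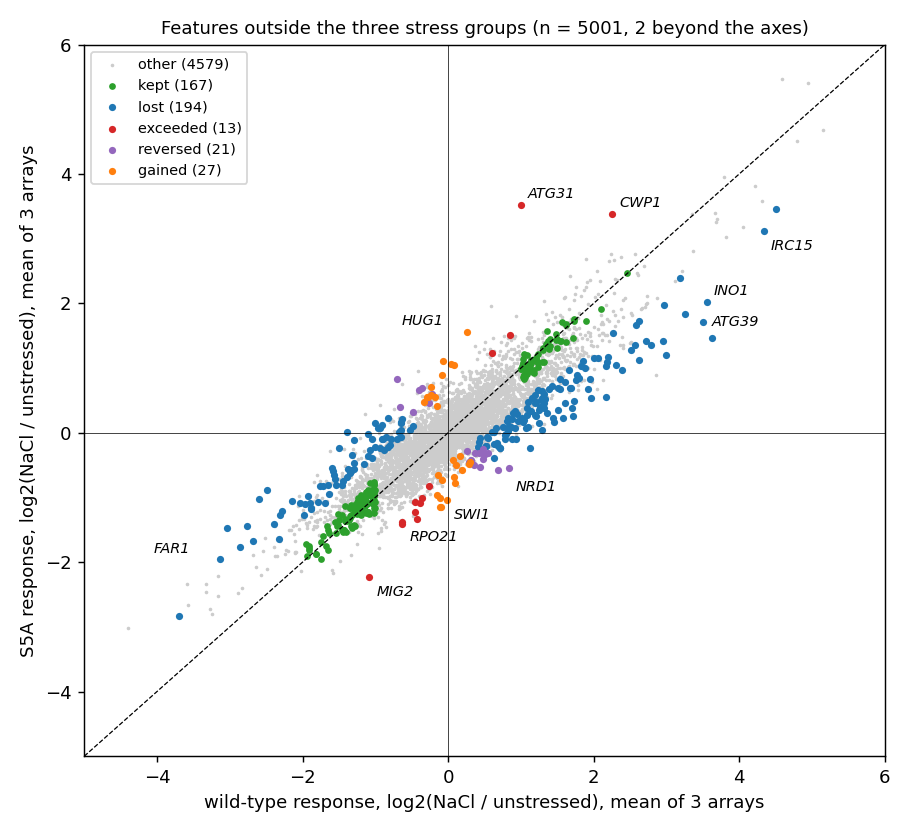
Mean log2 response to NaCl in wild-type (x axis) and S5A (y axis) for the 5001 features outside the 3 groups, 2 of which lie beyond the axes, with the dashed line at equal responses. Blue points (lost, 194) lie nearer the horizontal axis of no S5A response than points on the line, some of them just across that axis, red points (exceeded, 13) lie beyond the line, purple points (reversed, 21) and orange points (gained, 27) lie near or across the axes, and green points (kept, 167) lie along the line.

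Genes that lost induction had a median log2 response of 1.29 in wild-type and 0.38 in S5A, and 52 of the 121 no longer passed the response threshold in S5A. The largest difference was at YOL153C, annotated as a pseudogene. INO1, which encodes the enzyme that makes inositol phosphate, rose by 3.38, 4.16 and 3.12 on the wild-type arrays and by 2.02, 1.91 and 2.15 on the S5A arrays. The highest S5A array was below the lowest wild-type array, and the difference was -1.53 ± 0.28 (SE, adjusted p = 0.0095). CLD1, a mitochondrial enzyme that remodels cardiolipin, read 2.48, 3.44 and 2.94 in wild-type against 1.26, 1.38 and 1.61 in S5A. ATG39, a receptor that delivers nuclear envelope to autophagy, read 3.10, 3.78 and 3.63 against 1.07, 1.91 and 2.14. Both genes remained induced in S5A on every array, at a level below all wild-type arrays. The uncharacterised YHR007C-A fell short by 1.78 on the log2 scale in S5A. The maltose permease gene MPH3 averaged 2.17 ± 0.81 (SD, n = 3) in wild-type and 0.56 ± 0.29 in S5A, and its near-identical copy MPH2 averaged 1.97 and 0.54, and probes for these copies may share signal. Scaling or quantile normalization took the adjusted p of ATG39 and INO1 past the threshold, to between 0.035 and 0.056. All 6 of these genes lost the call without S5A replicate 1 (adjusted p 0.037 to 0.063) and 5 of 6, all but INO1, without wild-type replicate 3 (0.030 to 0.057).

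Genes that lost repression had a median of -1.38 in wild-type and -0.57 in S5A, and 28 of the 73 no longer passed in S5A. Some of them act in ribosome production but were not on the lists set aside. FAF1, which acts in maturation of the small ribosomal subunit, averaged -2.48 ± 0.47 (SD, n = 3) in wild-type and -0.89 ± 0.32 in S5A. RRN11, a subunit of the RNA polymerase I core factor, averaged -2.76 ± 0.36 and -1.45 ± 0.08. With RRN7, RIX7, LAS1, POL5, IFH1 and AIR1 they make 8 such genes, picked after their values were seen, and without them 65 features had lost repression. ZEO1, which encodes a plasma membrane protein, read -2.54, -2.71 and -2.53 on the wild-type arrays and -0.44, -1.35 and -1.30 on the S5A arrays. SOM1, a subunit of the mitochondrial inner membrane peptidase, fell on all 3 wild-type arrays (-1.07, -1.80 and -1.31), while its S5A values of 0.55, -0.18 and -0.35 lay on both sides of 0. GFD2, of unknown function, averaged -3.04 ± 0.37 against -1.47 ± 0.29. YML040W, a Gag reading frame of the Ty1 retrotransposon, averaged -1.50 and -0.24, and since Ty1 copies are near-identical its signal cannot be assigned to 1 locus. The uncharacterised YML108W read -0.99, -1.08 and -1.24 in wild-type and 0.04, -0.06 and -0.03 in S5A (difference 1.09, adjusted p = 0.0048). Together with FMP23 it was 1 of only 2 lost features still called without S5A replicate 1. The 6 largest losses of repression were not called without that array (adjusted p 0.028 to 0.064), and all but RRN11 were not called without wild-type replicate 3 (0.028 to 0.059). GFD2, RRN11, YML040W and ZEO1 were not called after scaling or quantile normalization.

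**Figure D2:**
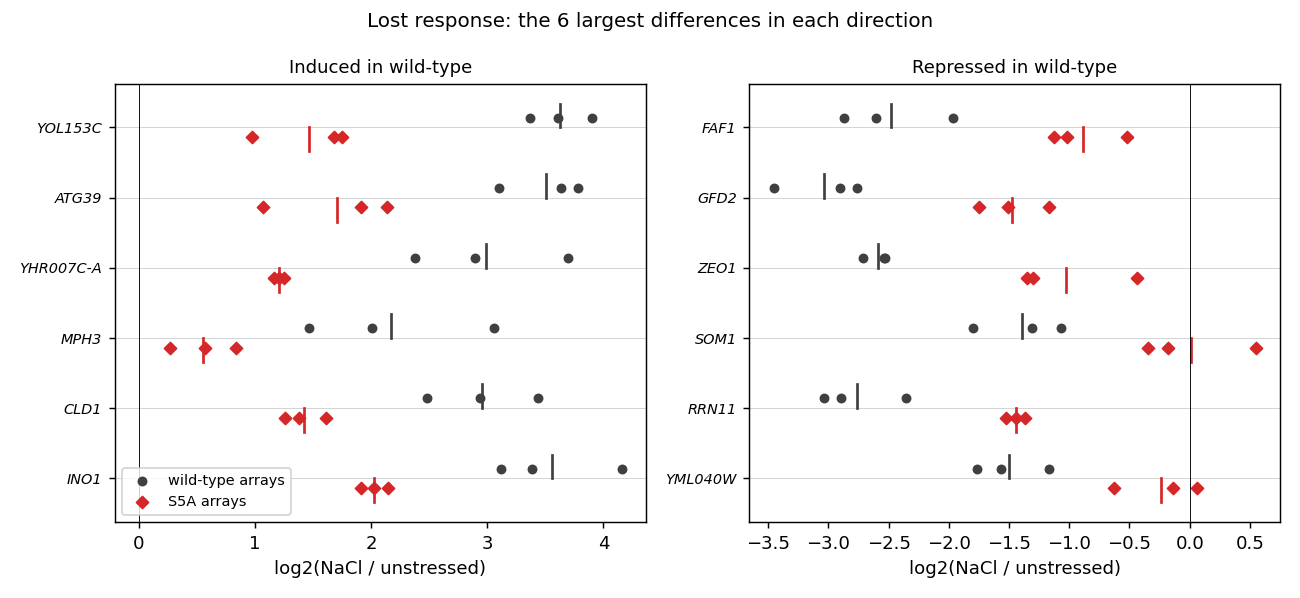
Log2 response on each array (dots, wild-type; diamonds, S5A; vertical bars, means of 3 arrays) for the 6 genes with the largest lost induction (left) and the 6 with the largest lost repression (right). In all but SOM1 and YML040W every S5A array keeps the wild-type direction.

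At 13 outside features S5A responded more strongly, 4 with a larger rise and 9 with a larger fall. ATG31, which encodes a scaffold protein that starts autophagosome formation, rose by 1.55, 0.77 and 0.67 in wild-type and by 4.47, 3.0 and 3.11 in S5A. Its difference of 2.53 ± 0.36 (SE, adjusted p = 0.0059) was the largest of all 255 outside calls, and the mean in CTD2A was 1.0. CWP1, a mannoprotein of the cell wall, rose by 2.62, 2.16 and 1.97 in wild-type and by 3.21, 3.39 and 3.56 in S5A. MDH2, the cytosolic malate dehydrogenase used in gluconeogenesis, averaged 0.85 and 1.51, and CCZ1, which acts in fusion with the vacuole, 0.60 and 1.24.

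Among the larger falls, MIG2, a repressor of glucose-repressed genes, read -1.41, -0.77 and -1.07 in wild-type and -2.35, -2.32 and -2.02 in S5A (difference -1.14, adjusted p = 0.0059). Its relative MIG1 kept its response, at -1.39 and -1.36. RPO21 itself read -0.72, -0.39 and -0.77 in wild-type and -1.55, -1.35 and -1.24 in S5A (difference -0.75 ± 0.15, adjusted p = 0.011). The gene is plasmid-borne and altered in S5A, so its value was measured on a different construct in each strain. The other genes were SNG1 (drug resistance), SLC1 (phosphatidic acid synthesis), SKS1 (a protein kinase), EDE1 (a scaffold of endocytosis), MHP1 (a microtubule-associated protein), PIM1 (the mitochondrial Lon protease) and PRD1 (a peptidase), with wild-type means of -0.26 to -0.63 and S5A means of -0.82 to -1.42. With the replicate block 29 outside features exceeded the wild-type response. Without S5A replicate 1, and likewise without wild-type replicate 3, ATG31 was the only 1 of the 13 still called, the other 7 of the 8 largest reaching an adjusted p of 0.031 to 0.092 and 0.025 to 0.066.

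Features that responded past the threshold only in S5A numbered 27, of which 12 rose and 15 fell. The largest rise was at HUG1, which encodes an inhibitor of ribonucleotide reductase induced by DNA damage. Its wild-type arrays read 0.81, -0.31 and 0.27 and its S5A arrays 1.93, 1.69 and 1.05. The rises also took in RRM3, a DNA helicase at replication forks (0.09 and 1.06), SMC5, a subunit of a chromosome maintenance complex (-0.18 and 0.56), and EST3, a telomerase subunit (-0.23 and 0.71). The ribonucleotide reductase genes RNR2, RNR3 and RNR4, named after their values were seen, were not called, with differences of -0.04, -0.53 and 0.34. YDR248C, a putative gluconokinase, averaged -0.07 and 1.12, and ARO5 0.04 and 1.06. The largest falls were at ERG28, a scaffold for ergosterol synthesis (-0.10 and -1.15), ICS2, of unknown function (-0.12 and -1.15), and SWI1, a subunit of the SWI/SNF chromatin remodeller. SWI1 read -0.16, 0.05 and 0.06 in wild-type and -1.14, -0.93 and -1.04 in S5A, the tightest of the 3 (difference -1.02 ± 0.13, adjusted p = 0.0056). Falls also occurred at CAN1, the arginine permease (-0.15 and -0.97), and KGD1, the first subunit of α-ketoglutarate dehydrogenase (0.11 and -0.50). With the replicate block 66 features were called in this class. None of the 27 was still called without S5A replicate 1, where the adjusted p of the 6 largest ran from 0.028 for SWI1 to 0.091 for HUG1. All 27 then had an unadjusted p below 0.05, which is no separate check, since they were picked on the same arrays. SWI1 and YDR248C were the 2 called without wild-type replicate 3.

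**Figure D3:**
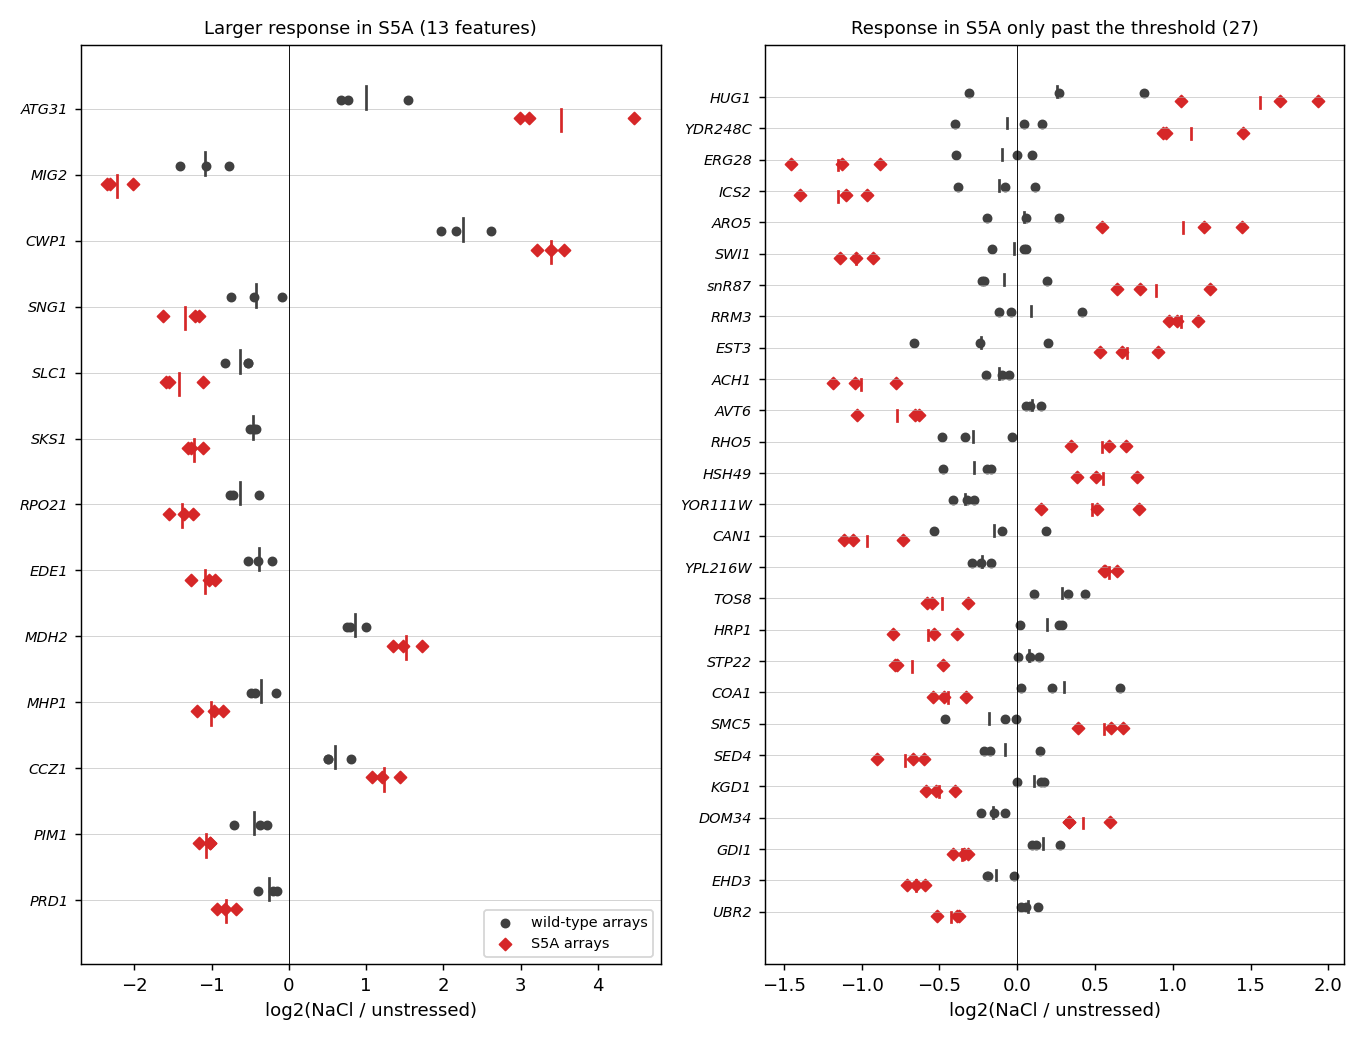
Log2 response on each array (dots, wild-type; diamonds, S5A; vertical bars, means of 3 arrays) for the 13 features with a larger response in S5A (left) and the 27 that passed the response threshold in S5A and not in wild-type (right). ATG31 stands apart with S5A arrays of 3.0 to 4.47, and in the right panel the wild-type arrays lie around 0 while the S5A arrays lie to one side.

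The response ran the opposite way in S5A at 21 features. The class asks for both means past the threshold on opposite sides of 0, which already favours arrays of opposite sign. On 20 of the 21 every wild-type array had one sign and every S5A array the other. The exception was DAN4, a cell wall mannoprotein, with a wild-type array at -0.03. These were small changes in both strains: no wild-type mean was farther from 0 than 0.83 and no S5A mean farther than 0.83. For comparison, 189 of the 5001 outside features, called or not, had opposite signs on all arrays of the strains. NRD1, which encodes the RNA-binding protein of the early termination complex and whose own transcript is limited by that complex, rose by 0.68, 1.09 and 0.72 in wild-type and read -0.78, -0.62 and -0.23 in S5A. The difference of -1.38 ± 0.18 (SE, adjusted p = 0.0056) held without each array in turn. HRP1, a 3′ end processing factor, changed in the same direction without a wild-type response (0.19 and -0.57), while NAB3, SEN1 and PCF11 were not called, with differences of -0.18, -0.21 and -0.38.

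Another 13 rises became falls. RPT5, an ATPase of the proteasome base, averaged 0.42 and -0.31, ECM29, which binds the assembled proteasome, 0.48 and -0.29, and DOA1, which acts on ubiquitinated proteins, 0.36 and -0.31. The transcription factors YAP1, of the oxidative stress response, and ADR1, of growth on ethanol and fatty acids, averaged 0.48 and 0.55 in wild-type and -0.26 and -0.31 in S5A. PEX2, a peroxisomal ubiquitin ligase, read 0.38, 0.60 and 0.34 in wild-type and -0.74, -0.60 and -0.26 in S5A. YJR149W, of unknown function, averaged 0.69 ± 0.56 (SD, n = 3) and -0.57 ± 0.25. GUT1 (glycerol kinase), MRS4 (mitochondrial iron import), ATG22 (amino acid export from the vacuole), MDS3 and ARP3 (actin branching) moved likewise.

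The 7 falls that became rises were RED1, CSM2, KAR3, PZF1, TFC4, RTC4 and YDL071C. RED1, a protein of the meiotic chromosome axis, read -0.07, -0.76 and -0.39 in wild-type and 0.81, 0.71 and 0.47 in S5A. CSM2, which acts in recombinational repair, averaged -0.66 and 0.40, and KAR3, a kinesin of the spindle, -0.48 and 0.31. PZF1 and TFC4, which encode transcription factors of RNA polymerase III, averaged -0.22 and -0.27 in wild-type and 0.61 and 0.46 in S5A. RTC4, of unknown function, averaged -0.36 and 0.70. The reading frame YDL071C, not in the RefSeq table used for names, had the largest value, 1.53, and the widest wild-type spread (SD 0.80, with 1 array at -1.62). It was not called with the replicate block (adjusted p = 0.028), after scaling (0.026) or after quantile normalization (0.025). With the block 41 features were reversed. NRD1 alone among the 21 was still called without S5A replicate 1, and 5 were (NRD1, ADR1, CSM2, KAR3 and PZF1) without wild-type replicate 3.

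**Figure D4:**
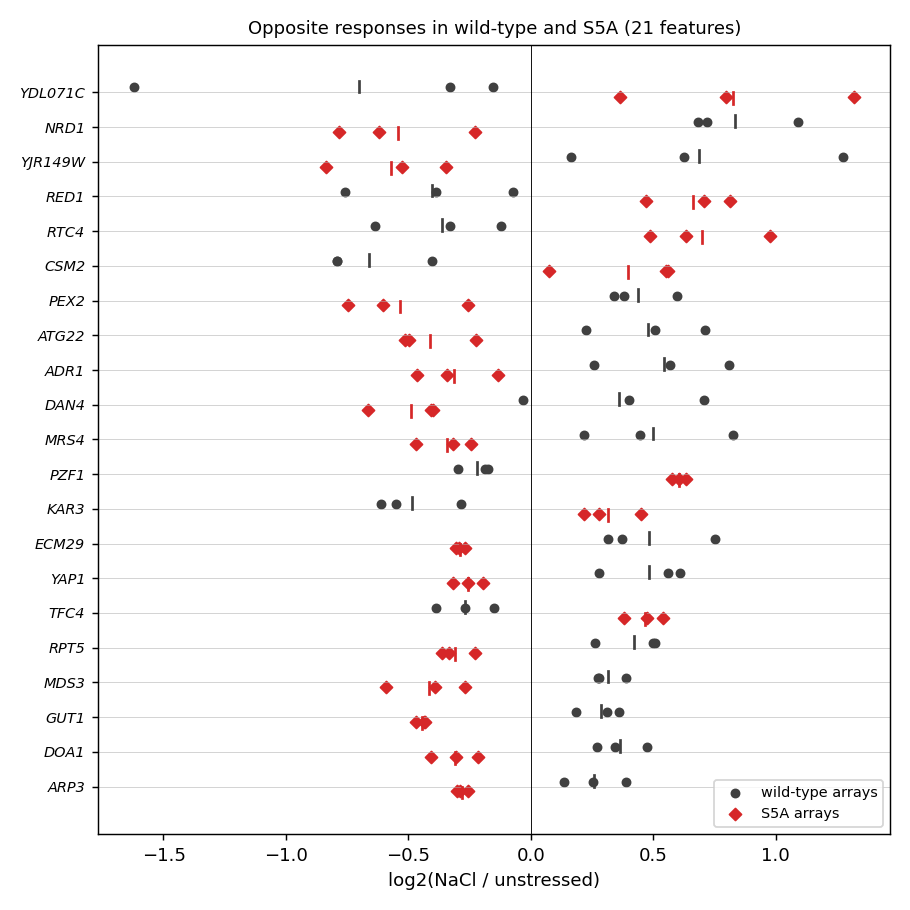
Log2 response on each array (dots, wild-type; diamonds, S5A; vertical bars, means of 3 arrays) for the 21 features with opposite responses, ordered by the size of the difference. Except for 1 DAN4 array at -0.03, the dots and diamonds of each feature lie on opposite sides of 0.

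A response was taken as kept where wild-type changed at least 2-fold and the 95% interval of the difference lay within a 1.5-fold change either way. This held for 167 outside features, 64 induced and 103 repressed. The most strongly induced were MFM1, a mitochondrial magnesium transporter, at 2.46 in wild-type and 2.46 in S5A (interval of the difference -0.50 to 0.51), and RCI50, RMR1 and CSH1, with differences of -0.18, -0.17 and -0.01. MSN2, which encodes a main transcription factor of the iESR genes, was also kept, at 1.55 and 1.42, as was RPN4, the activator of proteasome genes, at 1.05 and 0.89. The most strongly repressed were CYB5 (cytochrome b5), OXA1 (protein insertion into the mitochondrial inner membrane), OPT1 (peptide transport) and FSF1, with wild-type means of -1.96 to -1.91 and S5A means of -1.91 to -1.72. OXA1 read -2.01, -1.85 and -1.94 in wild-type and -1.97, -1.81 and -1.93 in S5A, and here the arrays of the strains overlapped. With quantile normalization OXA1 and FSF1 were nevertheless called: the difference of OXA1 was -0.80 (adjusted p = 0.024) and the difference of FSF1 was -0.66 (adjusted p = 0.017). Amino acid biosynthesis held 10 of the kept features among 74 outside genes, HIS4, HOM3, ARO1, LYS2, LEU2 and ILV6 among them, and only CPA1 of that list was called. Over all features tested 3.31% were kept by this rule. With a narrower margin 2 features were kept, and with the replicate block 205 were. After scaling 228 were kept, of which 64 were among the 167.

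Of 42 function lists, 9 had 3 or more called genes outside the groups. With the replicate block 10 cell wall, 9 TCA cycle, 8 autophagy, 7 respiratory chain and 7 peroxisome genes were called. The block gave 6 for iron, 4 each for lipids and nitrogen, and 2 for mating. In the reported fit the TCA cycle had the most for its size, 2 higher and 6 lower of 24, with a median difference of -0.35. That is 33.3%, against 7.95% of all features tested and 5.1% of features outside the groups. SDH1, the flavoprotein of succinate dehydrogenase, read 1.43, 1.96 and 1.43 in wild-type and 0.26, 0.53 and 0.59 in S5A (difference -1.14 ± 0.17, adjusted p = 0.0059). SDH2 and SDH3, further subunits of that enzyme, averaged 1.54 and 1.21 in wild-type and 0.68 and 0.48 in S5A, whereas SDH4 was not called (1.61 and 1.12). Of the assembly factors of that enzyme, which are not on the list, SDH6 was called, at 1.71 and 0.38, and SDH5 (0.55 and 0.45), SDH7 (0.30 and 0.50) and SDH8 (0.85 and 0.14) were not. IDP2, the cytosolic isocitrate dehydrogenase, averaged 1.67 and 0.69, and KGD2, the second subunit of α-ketoglutarate dehydrogenase, 0.43 and -0.14. MAE1, the malic enzyme and 1 of the 2 higher genes, was strongly repressed in wild-type and less so in S5A, with averages of -3.69 and -2.83. The difference of MAE1 was 0.87, fell to 0.17 after scaling (adjusted p = 0.65) and turned to -0.19 with quantile normalization. Glycerol use showed the same side, with GUT2, the mitochondrial glycerol-3-phosphate dehydrogenase, at 1.33, 1.68 and 1.54 in wild-type and 0.17, 0.46 and 0.43 in S5A. Without S5A replicate 1 no TCA cycle gene was called (12 had an unadjusted p below 0.05), 3 were without wild-type replicate 3, 4 were after scaling or quantile normalization, and 2 were on the 6 arrays of the compared strains alone.

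The respiratory chain and ATP synthase had 4 lower of 36 (11.1%), with a median of -0.19. That share compares with 7.95% of all features tested and 5.1% of features outside the groups. QCR8, QCR9 and QCR2, subunits of the cytochrome bc1 complex, averaged 1.27, 1.0 and 0.54 in wild-type and 0.39, 0.21 and -0.07 in S5A, and INH1, the inhibitor of the ATP synthase, 1.02 and 0.17. None of the 4 was called without S5A replicate 1 (11 of the 36 had an unadjusted p below 0.05) and INH1 alone was without wild-type replicate 3. The list had 2 calls with quantile normalization and 1 after scaling. None of the 73 mitochondrial ribosomal protein genes was called by limma, 10 had an unadjusted p below 0.05, and their median was -0.11. Over all 5001 outside features, 1335 had an unadjusted p below 0.05.

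Autophagy had 1 higher and 6 lower of 33 (21.2%) and a median of -0.25. Of all features tested 7.95% were called, and of those outside the groups 5.1%. ATG31 was the higher gene described above. ATG40, a receptor for the endoplasmic reticulum, read 1.01, 1.96 and 1.37 in wild-type and -0.14, 0.35 and 0.46 in S5A. ATG7 and ATG4, enzymes of the ubiquitin-like conjugation of Atg8, averaged 1.83 and 1.51 in wild-type and 1.03 and 0.69 in S5A, and ATG33, needed for mitophagy, 1.04 and 0.20. ATG16 was among the kept genes, at 1.30 and 1.29. Only ATG31 was called without S5A replicate 1, and 2 of the list were without wild-type replicate 3. With quantile normalization 2 of the list were called, and 4 after scaling.

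Of 42 proteasome genes 38 had a difference below 0, with a median of -0.29, while only RPT5 was called. The median response of the list was 0.22 in wild-type and -0.13 in S5A. The mating list had 3 higher of 35, or 8.57%, near the 7.95% of all features tested, beside 5.1% of features outside the groups. The α-factor genes MF(ALPHA)1 and MF(ALPHA)2 averaged -2.28 and -1.32 in wild-type and -1.20 and -0.34 in S5A. FAR1, which arrests the cell cycle in response to pheromone, averaged -3.14 and -1.96. FAR1 was not called with the replicate block (adjusted p = 0.031). Quantile normalization took the difference of FAR1 from 1.18 to 0.26 (adjusted p = 0.61) and the difference of MF(ALPHA)1 from 1.07 to 0.49 (adjusted p = 0.25). The list had 0 calls with quantile normalization (8 genes at an unadjusted p below 0.05), 1 after scaling and 0 on the 6 arrays of the compared strains alone (13 at an unadjusted p below 0.05). None of the 3 was called without S5A replicate 1 or without wild-type replicate 3, where 12 and 10 of the 35 genes had an unadjusted p below 0.05.

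The cell wall list had 1 higher and 3 lower of 73 and a median of 0.04. Its share of 5.48% was near the 5.1% of features outside the groups and below the 7.95% of all features tested. GSC2, a glucan synthase subunit made under stress, read 1.40, 2.05 and 1.29 in wild-type and 0.15, 0.35 and 0.19 in S5A (difference -1.35, adjusted p = 0.0068), next to the larger rise of CWP1. FLO10, a flocculin, averaged 0.88 and -0.09. Nitrogen catabolite repression had 4 lower of 26 (15.4%), and 2 after scaling or quantile normalization. The 4 were CAR2, ornithine transaminase (1.21 and 0.26), and the asparaginase copies ASP3-2, ASP3-3 and ASP3-4, whose near-identical sequences may share signal. The peroxisome list had 3 lower of 40, or 7.5% (PEX2, TES1 and PEX29), the fatty acid and phospholipid list 1 higher and 2 lower of 29, or 10.3% (OLE1, INO1 and SLC1), and the iron regulon 1 higher and 2 lower of 35, or 8.57% (AFT2, MRS4 and CCC2). The peroxisome and iron shares were near the 7.95% of all features tested, beside 5.1% of features outside the groups. Each of the peroxisome, lipid and iron lists had 1 call after scaling and 1 with quantile normalization. OLE1, the fatty acid desaturase, averaged -1.92 in wild-type and -0.98 in S5A. The difference of OLE1 was 0.94, and it was 0.66 after scaling (adjusted p = 0.097) and 0.55 with quantile normalization (adjusted p = 0.092). Without S5A replicate 1 none of the cell wall, nitrogen, peroxisome, lipid or iron genes was called. Of them 18, 7, 9, 6 and 9 had an unadjusted p below 0.05, and the count over all outside features was not taken for these arrays. Without wild-type replicate 3 each list had 0 or 1 called. The other 33 lists had 0 to 2 called genes. Glycolysis and fermentation (20 genes), cytosolic chaperones (34), Mediator (25) and the CTD kinases, CTD phosphatases and elongation factors (32) had 0 by limma, with 3, 4, 2 and 4 genes at an unadjusted p below 0.05. That level was reached by 1335 of the 5001 outside features.

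**Figure D5:**
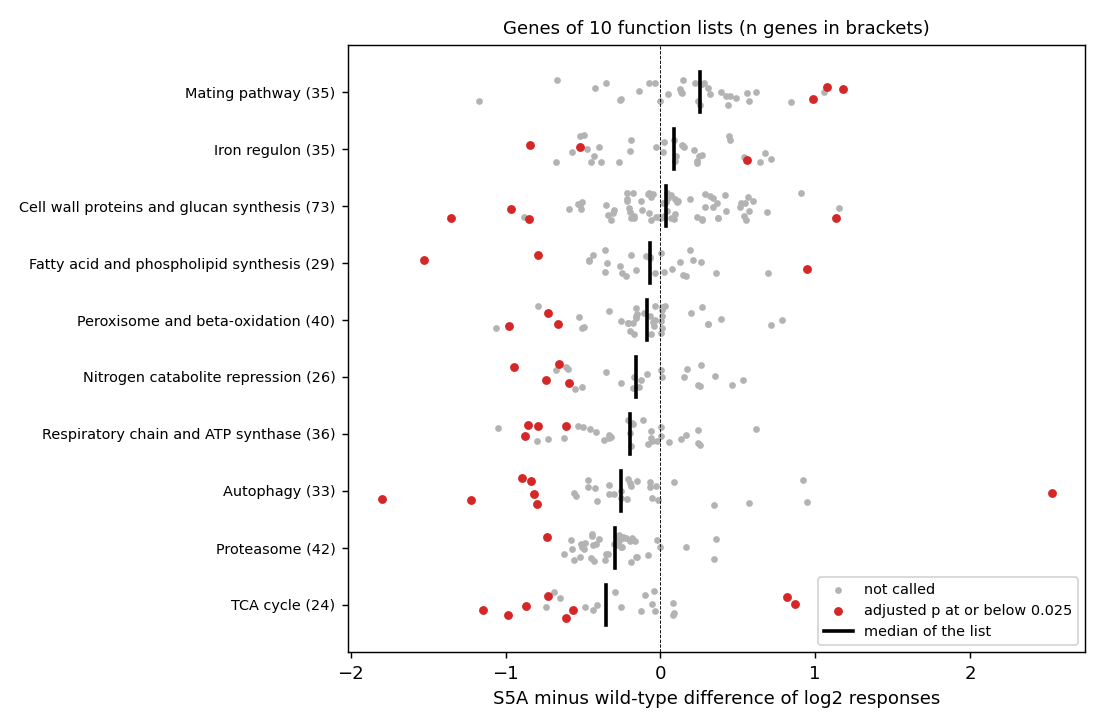
Difference of the log2 responses, S5A minus wild-type, for each gene outside the 3 groups in the 9 lists with 3 or more called genes and in the proteasome list (red, called; grey, not called; black bar, median of the list; vertical spread within a list has no meaning). The TCA cycle and proteasome medians lie at -0.35 and -0.29 and the mating median at 0.26, and the ATG31 point at 2.53 stands apart in the autophagy list.

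Genes of the spindle and kinetochore, collected after their values were seen, had 8 higher and 0 lower of 69 (11.6%), with a median of 0.28. Of all features tested 7.95% were called, and of those outside the groups 5.1%. SLK19, a kinetochore protein that stabilises the anaphase spindle, read -1.26, -1.08 and -0.69 in wild-type and 0.43, -0.08 and 0.13 in S5A. SLI15, part of the Aurora kinase complex, averaged -0.82 and 0.23, VIK1, a partner of the Kar3 kinesin, -0.65 and 0.17, and CIN8, another spindle kinesin, -1.10 and -0.35. BUB1 (spindle checkpoint), DUO1 (attachment to microtubules) and SMC3 (cohesin) fell in wild-type and less in S5A as well. Because the list was drawn up from these genes, its count is a description only. Genes that modify tRNA or diphthamide, collected in the same way, had 6 higher of 39, or 15.4% (PUS2, MTO1, TRM5, TRM13, DPH1 and DPH2), with a median of 0.42.

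Some called features were neighbours on the genome, and whether they cluster was not tested. In the order of protein-coding genes in RefSeq (assembly R64), 4736 neighbouring pairs were examined, inside or outside the groups. Both genes were called in 42 pairs, where 7.95% of all single features were called. Of these pairs 30 moved the same way, 9 of them outside the groups. One run of 3 neighbours lost induction together: GIP1, a phosphatase subunit of sporulation (2.56 and 1.35), ZTA1, a quinone oxidoreductase (1.09 and 0.27), and FMP23, a mitochondrial protein (2.30 and 1.05). FMP23 was still called without S5A replicate 1. The neighbours IRC15 and SWI1 were both lower, IRC15, a microtubule-associated protein, at 4.33 and 3.12 and SWI1 as given above. Among features that are not protein-coding, none of 117 tRNA features (4 at an unadjusted p below 0.05) and 1 of 67 small nucleolar or nuclear RNA features outside the groups was called, the latter being snR87 (-0.08 and 0.89).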

How the data were processed

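Values were measured on 2-colour tiled arrays, 3 each for CTD14, CTD2A and CTD5A. The deposited log2 ratios, salt-treated over unstressed RNA of the same strain, had been normalized by the authors by procedures that their methods only cite, and array medians of -0.00135 to -0.00011 show centring. The genome build is not given in the sources used here. The salt-treated sample carried the same dye on every array, and dye bias common to all strains would drop out of a difference between strains but stay in the response of each. No value in the file tests which RPB1 allele a culture carried. Missing values numbered 156 to 1163 per array.

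The 5645 features without a missing value were tested with limma 3.58.1 under R 4.3.3 (lmFit and eBayes with 1 mean per strain, Benjamini-Hochberg adjustment over all features tested). The cut-offs are those that the study's methods apply to Storey q-values, a different measure. Counts with a Storey q-value are given below. The p-values measure the spread between samples labelled as replicates, which may be technical. Same-numbered arrays of the strains deviated together from the strain means (correlations over features of 0.23, 0.18 and 0.17), so the replicate numbers were taken to pair them. The reported calls come from the fit without a replicate block. Counts with the block are given for the outside calls, their classes and the described lists, and its adjusted p for YDL071C and FAR1, which it left uncalled. A lost response was a called difference with the S5A mean nearer 0 than a wild-type response past 0.05. An exceeded one was farther from 0 with the same sign, a reversed one had both responses past 0.05 with opposite signs, and a gained one had only the S5A response past 0.05. The groups set aside came from gene symbols and, for 65 features, from cluster words in the study's supplement. Names came from RefSeq (assembly R64), which matched 5984 of 6868 features, and 5 of 1506 entries of the function lists were not found.

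The members, lists, tests and alternatives were chosen with earlier results of these data known. Genes were named by the size of the difference within each class and within each list with 3 or more calls, by the wild-type response for kept genes, and RPO21 by name. All other named genes were added after their values were seen. The fit was tested on simulated data. Promoter and protein sequences were not used here. The values of 1 called gene are not reported here.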

Additional observations from a re-analysis of the deposited data

Results flagged for a closer look

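Each of the 21 features below responded past the threshold in opposite directions in the 2 strains, and the difference between the strains itself was called by limma. The values are the S5A minus wild-type differences of the log2 responses. A rise in wild-type was a fall in S5A at NRD1 (-1.38), YJR149W (-1.26), PEX2 (-0.98), ATG22 (-0.89), ADR1 (-0.86), DAN4 (-0.85), MRS4 (-0.84), ECM29 (-0.77), YAP1 (-0.74), RPT5 (-0.73), MDS3 (-0.73), GUT1 (-0.73), DOA1 (-0.67) and ARP3 (-0.54). A fall in wild-type was a rise in S5A at YDL071C (1.53), RED1 (1.07), RTC4 (1.06), CSM2 (1.06), PZF1 (0.82), KAR3 (0.80) and TFC4 (0.73). On all arrays but 1 of DAN4 the strains lay on opposite sides of 0, which the rule for this class already favours. Since a response is a ratio to each strain's own unstressed culture, these values cannot tell the unstressed level from the salt-treated level. The paper reports few expression differences among the strains before stress, which was not tested at these genes. CTD2A means, measured on separate arrays, lay between the wild-type and S5A means at NRD1 (0.45), RED1 (0.15), PEX2 (0.12) and ADR1 (0.09).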

How the results depend on the processing

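For each alternative the counts below are, where they moved by over 1.5 times, of features outside the 3 groups and of function lists with 3 or more calls, beside 255 called, 194 lost, 13 exceeded, 21 reversed, 27 gained, 167 kept and 9 lists as reported. Quantile normalization gave 152 called, 56 lost, 44 exceeded and 5 lists, and scaling to one spread gave 169, 65, 45 and 4. Of these calls 112 and 128 were among the 255. A value on at least 2 arrays of each strain (6254 features) gave 6 exceeded, 16 gained and 4 lists. Protein-coding features only gave 14 lists. The 6 arrays of the strains compared gave 150 called, 117 lost, 5 exceeded, 13 gained and 4 lists. The replicate block, which follows the pairing of the arrays, gave 467 called, 331 lost, 29 exceeded, 41 reversed, 66 gained and 16 lists, and 245 of the 255 were called again. Array weights gave 909, 660, 77, 72, 100, 256 kept and 33 lists. Storey's q-value, the measure that the study's methods name, gave 506 called, 346 lost, 37 exceeded, 86 reversed and 21 lists. An adjusted p below 0.05 for the difference gave 512 called, 383 lost, 29 exceeded, 74 gained and 21 lists, and a narrower margin gave 2 kept. Leaving out each array in turn gave 4 to 253 called, 2 to 198 lost, 1 to 10 exceeded, 1 to 26 reversed, 0 to 23 gained, 98 to 180 kept and 0 to 9 lists. The count called was 4 without S5A replicate 1, 81 without S5A replicate 2, 77 without S5A replicate 3, 108 without wild-type replicate 2 and 38 without wild-type replicate 3, and the lowest kept count came without S5A replicate 2. Without S5A replicate 1 each of the 255 kept its direction at an unadjusted p below 0.05. This is no separate check, since the 255 were picked on the arrays that stayed in the fit. Robust eBayes, lists without the authors' cluster words and the 8 ribosome production genes left out moved none of these counts by over 1.5 times. The last of these, and the alternatives for the response and list counts, were added after the data were seen.

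Of 1176 values of the named genes under the alternatives, 857 kept their call or, for kept genes, their size, 302 kept the direction and missed the threshold, 16, all of kept genes, moved by more than the spread between replicates, and 1 changed direction, MAE1 with quantile normalization (-0.19). The cause was not tested for any of these. The promoter comparison was not run. Precision rests on 3 arrays per strain. Spot signal over background was not used here.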
